A study of Caenorhabditis elegans with 2 samples.

Results

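The regions described here are the binding peaks of an eGFP-tagged NHR-21 that lie on the X chromosome of Caenorhabditis elegans away from annotated promoters. The authors' optimal list holds peaks that passed a threshold of reproducibility, and the sources used do not say between which sets of reads. A member was a peak of that list on X. Its summit, the position of highest signal, lay in no window from 1000 bp upstream to 250 bp downstream of the 5′ end of a protein-coding transcript. This rule gave 461 members, at 457 distinct intervals, of 814 optimal peaks on X and 3647 in the whole genome. NHR-21 is a nuclear hormone receptor, a family of zinc finger transcription factors. The single group was whole L2 larvae, pooled males and females, of strain OP361. It carries the eGFP-tagged gene as the integrated transgene wgIs361 in an unc-119(tm4063) III mutant, so the tagged protein comes from a transgene and not from the native locus. Chromatin immunoprecipitation and sequencing (ChIP-seq) was done on 2 biological replicates, on fragments of 150 to 350 bp. The label for the antibody says nhr-21, while the sample description speaks of the eGFP fusion. No control sample and no other tagged factor was analysed here, so whether the same regions would be recovered in another immunoprecipitation was not tested.

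The X chromosome of this worm is under dosage compensation. In hermaphrodites, a condensin-like dosage compensation complex loads onto X at recruitment elements named rex sites and spreads from there, lowering transcription of X genes. The rex sites share a short motif that is enriched on X, whose core holds the word GCGCAGGG. Genes for tRNAs are another kind of element outside protein-coding promoters: RNA polymerase III transcribes them from internal promoter boxes, with the factor TFIIIB placed just upstream of the start. The E-box CACGTG is bound by basic helix-loop-helix proteins, repeats of GA are common in worm promoters and enhancers, and AGGTCA is a half-site of many nuclear receptors.

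Of the 20 members with the highest signal, 6 held GCGCAGGG within 50 bp of the summit. These 6 windows, 50 bp to either side of the summit, are shown because they carry the clearest sequence pattern among the strongest members. Sequences are from the RefSeq genome in build WBcel235 (coordinates equal to ce11), and capitals mark GCGCAGGG or its reverse complement.
member nearest to W02H3.3 (chrX:11094148-11094248, + strand): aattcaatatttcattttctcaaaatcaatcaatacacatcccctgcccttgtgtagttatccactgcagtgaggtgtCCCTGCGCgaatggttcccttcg
member in mom-1, nearest to cest-16 (chrX:6296523-6296623, + strand): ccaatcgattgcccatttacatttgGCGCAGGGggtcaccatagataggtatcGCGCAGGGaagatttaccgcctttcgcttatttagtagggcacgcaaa
member nearest to xol-1 (chrX:8036384-8036484, + strand): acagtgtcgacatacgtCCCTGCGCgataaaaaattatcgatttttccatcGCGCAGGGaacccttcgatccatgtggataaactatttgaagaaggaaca
member nearest to F20B6.9 (chrX:4209219-4209319, + strand): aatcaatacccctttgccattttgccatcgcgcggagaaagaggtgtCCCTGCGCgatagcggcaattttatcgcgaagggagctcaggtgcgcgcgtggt
member in Y41G9A.17 (chrX:2997046-2997146, + strand): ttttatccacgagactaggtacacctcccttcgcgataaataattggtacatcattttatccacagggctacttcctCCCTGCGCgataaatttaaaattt
member nearest to gtr-1 (chrX:806624-806724, + strand): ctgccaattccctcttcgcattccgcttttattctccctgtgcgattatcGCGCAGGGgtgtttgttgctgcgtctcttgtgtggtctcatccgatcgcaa

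A further 7 of the 20 strongest held a word that differs from GCGCAGGG in 1 base. In 4 of these it was GCGAAGGG, in capitals on either strand in the next windows, and the windows at F20B6.9 and Y41G9A.17 above hold GCGAAGGG beside GCGCAGGG.
member nearest to K02D3.1 (chrX:13700826-13700926, + strand): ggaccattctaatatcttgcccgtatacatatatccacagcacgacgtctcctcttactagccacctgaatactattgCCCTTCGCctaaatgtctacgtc
member nearest to ZK899.6 (chrX:9465810-9465910, + strand): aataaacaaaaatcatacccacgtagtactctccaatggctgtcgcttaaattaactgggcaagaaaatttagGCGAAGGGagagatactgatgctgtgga
member in pks-1, nearest to C41A3.2 (chrX:5429486-5429586, + strand): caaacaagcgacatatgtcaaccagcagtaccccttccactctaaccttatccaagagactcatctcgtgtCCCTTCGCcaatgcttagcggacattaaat
member nearest to F43E12.1 (chrX:7181762-7181862, + strand): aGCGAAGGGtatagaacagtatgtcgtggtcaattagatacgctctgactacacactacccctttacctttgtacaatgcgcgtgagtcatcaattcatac

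The other sequence classes are shown by 4 windows. In the first pair capitals mark the E-box CACGTG. In the second pair they mark the bases of an annotated tRNA gene, for tRNA-Val and tRNA-Pro, on which the summit lies. The tRNA-Pro gene is on the - strand, so its letters are the reverse complement of the gene.
member nearest to mdl-1 (chrX:6743972-6744072, + strand): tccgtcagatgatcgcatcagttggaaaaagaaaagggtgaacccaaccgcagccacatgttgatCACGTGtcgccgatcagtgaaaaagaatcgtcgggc
member nearest to R03E9.2 (chrX:6737677-6737777, + strand): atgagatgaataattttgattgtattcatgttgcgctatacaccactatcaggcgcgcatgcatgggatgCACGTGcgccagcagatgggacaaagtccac
member at the tRNA-Val gene, nearest to srd-43 (chrX:13307019-13307119, + strand): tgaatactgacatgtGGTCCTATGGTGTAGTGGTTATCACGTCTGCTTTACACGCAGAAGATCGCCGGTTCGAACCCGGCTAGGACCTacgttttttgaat
member at the tRNA-Pro gene, nearest to ZK899.6 (chrX:9467725-9467825, + strand): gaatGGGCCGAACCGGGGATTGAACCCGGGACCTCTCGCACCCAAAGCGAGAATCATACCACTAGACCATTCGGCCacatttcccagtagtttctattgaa

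The members made up 56.6% of the optimal peaks on X (95% Wilson interval 53.2 to 60.0%), against 43.6% on autosomes (1235 of 2833, 41.8 to 45.4%). The difference was 13.0 percentage points (95% Newcombe interval 9.15 to 16.9). Sequence outside the windows made up 77.3% of X and 72.0% of the autosomes. Per Mb of that sequence, X held 33.6 optimal peaks and the autosomes 20.8. Members lay along the whole of X, with 5 to 44 in each of its 17 full Mb (median 25). The next member was 5383 bp away at the median, and 73 members had another within 1000 bp. The distance to the nearest protein-coding 5′ end ran from 265 to 15186 bp with a median of 2173 bp. For 240 members it was over 2000 bp, and 39 lay within 250 bp of a window edge. Intervals for shares and differences cover counting error of peaks only, since neighbouring peaks are not independent and read totals were not given.

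The signal of the members, the authors' own value for a peak over both replicates, ran from 52.3 to 1105 with a median of 85.9. The pooled list is labelled as peaks and background together, so a candidate in it can be background and not binding. The X chromosome had 3694 other pooled candidates outside the same windows that overlapped no optimal peak. These had a median signal of 15.6 and reached 52.2, and since signal set which candidates became optimal this is a description. The weakest members were nearest to flp-8 (52.3), F57C7.4 (52.4), F13E6.1 (52.6), cyp-14A4 (52.7) and F55F3.4 (52.7). Just outside the list lay candidates nearest to B0416.3 (52.2), gbb-1 (52.0), M02D8.7 (52.0), C25A11.2 (51.9) and C11G10.1 (51.6). Members held 11 of the 20 strongest optimal peaks of the genome and 26 of the strongest 100, but 65 of the strongest 500 (13.0%), close to their 12.6% share of all optimal peaks. The autosomal optimal peaks outside windows held 0, 29 and 150 of the same places, although their median signal was 84.7.

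**Figure D1:**
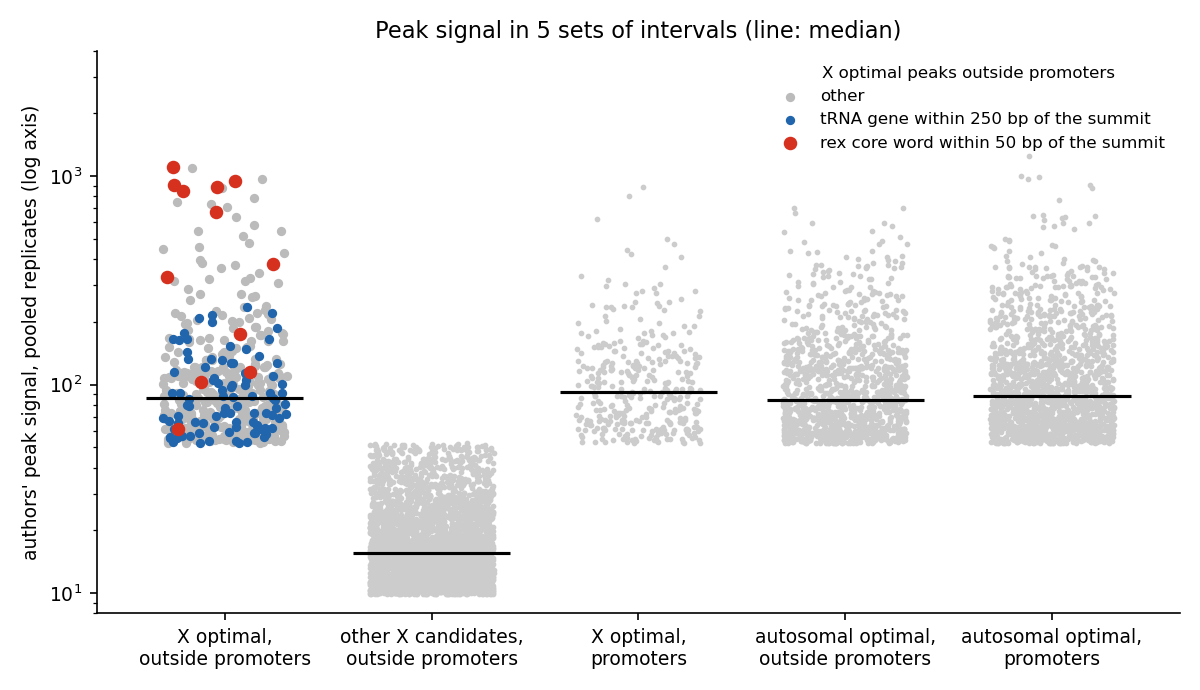
Authors' peak signal over both replicates (log axis) in 5 sets of intervals, 1 point per interval, with the median as a line. Among the X optimal peaks outside promoters, red points hold the rex core word GCGCAGGG within 50 bp of the summit and reach 1105, and blue points lie within 250 bp of a tRNA gene and reach 236.

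The strongest members ranked near the top of both replicates. The optimal list and its signal were themselves made from these replicates. Ranks and shares in the replicate lists are therefore a description and not independent support. The member nearest to W02H3.3 had a signal of 493 in replicate 1 and 608 in replicate 2, ranks 2 and 3 of those lists. The member nearest to K02D3.1 had 415 and 672, and that nearest to ZK899.6 had 458 and 515. All 20 strongest members were among the first 77 intervals of replicate 1 and the first 60 of replicate 2, with summits moved by at most 30 bp and 16 bp. Over the whole set, 342 members were found among the first 3647 intervals of replicate 1 and of replicate 2 (74.2%, 70.0 to 78.0%), 8 in neither. For the autosomal optimal peaks outside windows this share was 73.0%, and for X promoter peaks 79.0%. The 119 members missing from at least 1 replicate list had signals of 52.3 to 97.0. Of the 116 members with the highest signal all were in both lists, and of the 115 with the lowest signal 28. Across 460 members with an interval in both replicates, the signals gave a Spearman's rho of 0.679 and, as log2, a Pearson's r of 0.809, as a description over peaks that share their 2 libraries. Replicate 2 had the higher value for 396 of them, on scales set separately for each library.

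**Figure D2:**
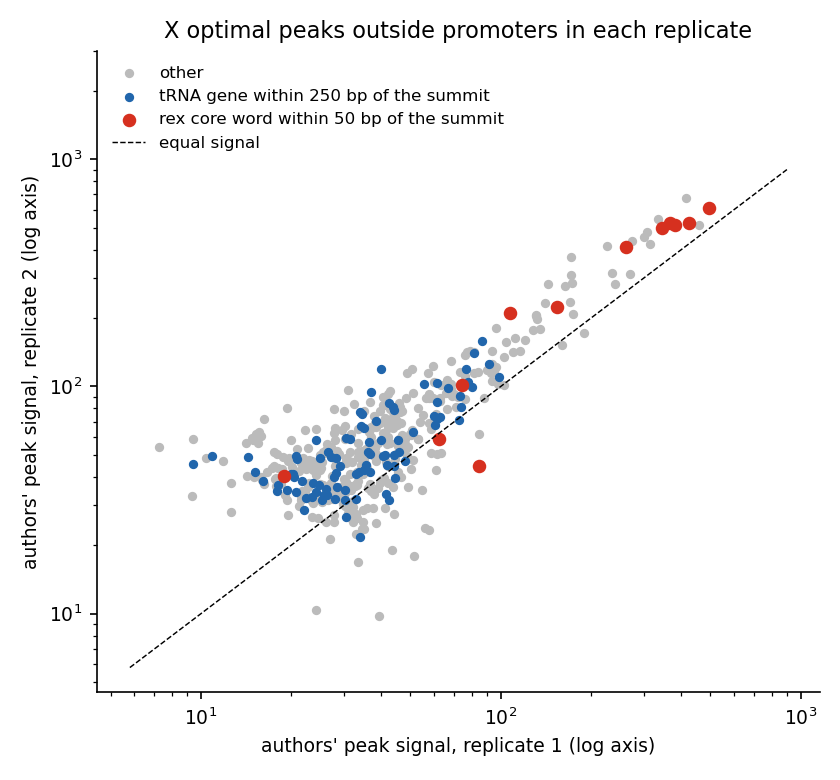
Authors' peak signal of each X optimal peak outside promoters in replicate 1 and replicate 2 (log axes), with a dashed line of equal signal. The members with the rex core word, in red, reach 493 in replicate 1 and 608 in replicate 2, and peaks beside tRNA genes, in blue, reach 98.5 and 158.

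Members were seldom in coding sequence and often in exons of noncoding genes. Intergenic sequence held 217 of the 461 summits (47.1%) against 39.1% of the other X candidates outside windows, a difference of 7.95 points (3.17 to 12.8). It was 12.3 points without replicate 1 and 11.2 without replicate 2. Exons of noncoding genes held 90 (19.5% against 3.87%, 15.7 points, 12.2 to 19.6). Coding exons held 10 (2.17% against 17%, -14.8 points, -16.4 to -12.7), and 3′ UTRs 12 (2.60% against 6.58%, -3.98 points, -5.37 to -1.94). Introns held 132 (28.6% against 33.1%), and that interval of -8.70 to 0.0699 points included 0. In 5′ UTRs outside the windows lay 0 of 461 summits (Wilson interval 0 to 0.826%). Against autosomal optimal peaks outside windows, the share in noncoding exons was 8.11 points higher (4.25 to 12.3) and the difference in coding exons was -2.28 points (-3.92 to -0.237), while the intervals for intergenic sequence and introns included 0.

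Genes for tRNAs lay beside 46 of the 90 members in noncoding exons. In all, a tRNA gene lay within 250 bp of 91 member summits (19.7%, 16.4 to 23.6%), against 1.73% of the other X candidates outside windows, a difference of 18 points (14.6 to 21.9). It was 15 points (11.4 to 19.1) above the 4.70% of autosomal optimal peaks outside windows, and 13.2 points (8.66 to 17.7) above the 6.52% of X optimal peaks in windows. Counted by gene, 135 of the 276 tRNA genes on X had an optimal summit within 250 bp (48.9%), 108 of them a member. On autosomes 88 of 336 did (26.2%), 22.7 points fewer (15.1 to 30.1). Of the 276 on X, 225 lay outside the windows and 105 of these were beside a member, so X promoter peaks had fewer tRNA genes within reach. X alone held 276 tRNA genes against 336 on all autosomes together, so they are denser on X. The part of these positions and numbers in the peak shares, also those in noncoding exons, was not tested.

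All 20 named products (amino acids as annotated in RefSeq) were among the tRNA genes beside members. The share of X genes beside a member was 9 of 14 for tRNA-Val, 8 of 13 for tRNA-Ala and 12 of 20 for tRNA-Pro. It was 3 of 15 for tRNA-Gln, 4 of 18 for tRNA-Lys and 2 of 9 for tRNA-His. These counts are small, and no order among products was tested. The strongest members beside a tRNA gene were those of a tRNA-Pro gene near F46G11.4 (signal 236, with 86.3 and 158 in replicates 1 and 2), a tRNA-Glu gene near M02F4.2 (221, with 81.2 and 140) and a tRNA-Asn gene near sulp-3 (215, with 91.1 and 125). All 91 ran from 52.7 to 236, so the 20 strongest members included 0 of them, and their median signal was 79.4 against 88.1 for the other 370 members. Among them 68 were in both replicate lists.

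Of the 91 summits, 43 were inside an annotated tRNA gene, 39 upstream of its start and 9 downstream of its end. Of the 39, 27 were between 40 and 21 bp upstream. The median position was 14 bp downstream of the start. In all, 85 lay within 100 bp of the start. Copies of a tRNA gene can be near-identical, and how the authors treated reads that map to several places was not stated. Of all members, 32 had a window in which fewer than 50% of the words of 32 bases occur once in the genome, and 30 of these 32 lay beside a tRNA gene. Without such windows in either set, 14.2% of 429 members and 1.28% of the other X candidates lay beside a tRNA gene, a difference of 12.9 points (9.92 to 16.6).

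Of the other noncoding classes, only the broad ncRNA class was numerous. Its genes lay within 250 bp of 121 summits (26.2% against 8.91% of the other candidates, 17.3 points, 13.4 to 21.6). The share was 22.4% for X promoter peaks, and the interval of that difference, -2.13 to 9.69 points, included 0. For autosomal optimal peaks outside windows it was 17.9%, a difference of 8.35 points (3.94 to 13.0). lincRNA genes lay beside 5 members, miRNA genes beside 3, pseudogenes beside 2, and snoRNA, snRNA, piRNA and antisense RNA genes beside 1 each. Of 57 X genes in the microRNA list, cel-mir-264 and cel-mir-788 lay beside a member. For snoRNA genes, 62 of 1235 autosomal optimal peaks outside windows were beside one (5.02%), a difference of -4.80 points for members minus autosomes (-6.18 to -3.33).

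The rex core word GCGCAGGG was rare in the members as a whole and frequent among the strongest. It was found on either strand within 50 bp of 12 summits (2.60%, 1.5 to 4.49%), against 4 of 3694 other X candidates outside windows (0.108%). The difference was 2.49 points (1.37 to 4.39). In the flanks of the same members, windows of equal size centred 400 bp away toward the lower coordinate, 0 of 461 held it (exact McNemar test, adjusted p = 0.0127 over 1166 words of 8 bases). Of all 1166 words, 3.69% were called higher and 6.6% lower at summits. GCGCAGGG was at 1 of 1235 autosomal optimal peaks outside windows, 1 of 1598 in windows and 4 of 353 X optimal peaks in windows (1.13%). The interval of the difference between members and X promoter peaks, -0.596 to 3.48 points, included 0. The word was noticed in earlier results of these data before it was counted here.

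Members with the word had a median signal of 525, against 85.0 for the other 449. The 6 among the 20 strongest had signals from 673 to 1105. The member nearest to xol-1, the switch gene that sets sex and dosage compensation from the X dose, had 904 (367 and 523 in replicates 1 and 2) and lay 4879 bp upstream of its 5′ end, with 2 copies. The member in an intron of mom-1, a gene needed for Wnt secretion, had 950 (424 and 526), also with 2 copies, and its nearest 5′ end was that of cest-16. The member nearest to F20B6.9 had 890 (382 and 512), with the word centred 0.5 bp from the summit. Those in Y41G9A.17 and nearest to gtr-1 had 851 (344 and 499) and 673 (261 and 411). The other 6 were nearest to T24D8.6 (377), col-185 (329), dpy-23 (176), Y41G9A.17 (115), F20B6.9 (103) and WBGene00020828 (61.2). The last of these was the only one of the 12 outside the strongest 3647 intervals of replicate 1, where it ranked 5083. Members at Y41G9A.17 and F20B6.9 come in pairs 200 and 560 bp apart, so these 4 are not separate places.

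Counting the whole interval and not only the summit, 20 members held GCGCAGGG, 7 of them several copies. Some of these intervals share copies, since 23 separate copies lay in members, so the 20 are not all separate places. Among the 20 strongest members, 9 held the word in their interval. The 3 added in this way were nearest to F19H6.5 (signal 790), F22H10.2 (749) and C41A3.2, in a coding exon of the polyketide synthase gene pks-1 (733). With 1 mismatch allowed, 42 members had the word within 50 bp (9.11%) against 2.06% of the other X candidates, a difference of 7.05 points (4.70 to 10.1), and 13 of the 20 strongest did. Against autosomal optimal peaks outside windows (3.89%) the difference was 5.22 points (2.62 to 8.35). X promoter peaks had nearly the same share, 29 of 353 (8.22%). The difference of 0.895 points from them had an interval of -3.16 to 4.74, which included 0. Among the words with 1 mismatch, GCGAAGGG was the most frequent at members: 9 had it, 6 of them among the 20 strongest, against 6 of the 3694 other X candidates, 0 of 1235 autosomal optimal peaks outside windows and 3 of 353 X promoter peaks. GCGAAGGG was singled out after its count was seen. Either GCGCAGGG or GCGAAGGG was present at 19 members and at 10 of the 20 strongest.

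Most copies of the word in the genome lay outside optimal peaks, and most of those inside were on X. Of 81 copies on X, 31 lay inside an optimal peak (38.3%, 28.4 to 49.2%), 23 of them in members, against 5 of 233 on autosomes (2.15%), a difference of 36.1 points (25.9 to 47.1). The autosomes ranged from 0 of 64 copies on chromosome V, and 0 of 31 on chromosome I, to 3 of 46 on chromosome III (6.52%). The bases beside the word differed too. The letters TC stood directly before GCGCAGGG in 11 of the 23 copies in members (47.8%, 29.2 to 67.0%) and in 6 of the 50 X copies in no optimal peak (12%, 5.62 to 23.8%). They stood before 6 of the 228 autosomal copies in no optimal peak (2.63%). The next base was A after 16 of the 23 copies in members and after 14 of the 50. Of X copies after TC, 13 of 19 lay in an optimal peak, and of autosomal ones 0 of 6, which is a difference of 68.4 points (23.4 to 84.6). Among copies not after TC the shares were 18 of 62 on X and 5 of 227 on autosomes (26.8 points, 16.6 to 39.1). The flanking letters were chosen after the printed windows were seen.

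**Figure D3:**
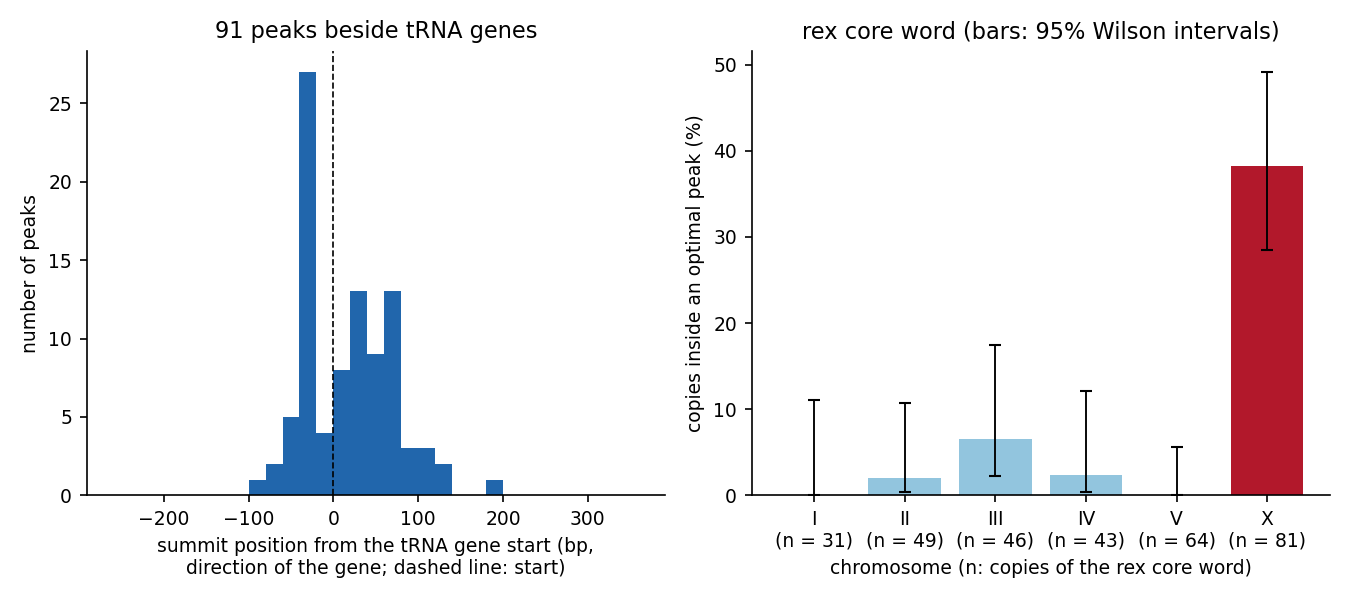
Left, number of members by the position of the summit relative to the start of the tRNA gene beside it, in bins of 20 bp, with 27 of 91 between 40 and 21 bp upstream. Right, percent of the copies of the rex core word GCGCAGGG that lie inside an optimal peak, by chromosome, with 95% Wilson intervals (38.3% on X).

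Across all words of 6 bases, each counted once with its reverse complement, 7.26% (151) were more frequent at member summits than in the flanks and 5.53% (115) less frequent (exact McNemar test, Benjamini-Hochberg adjusted p under 0.05). Words called higher averaged 67.1% GC and those called lower 17.4%. The windows themselves held 43.9% ± 7.67 GC (SD over 461 members) at the summit and 34.5% ± 8.36 in the flank, against 36.2% at the summits of the other X candidates. The part of this base composition in the word counts was not tested. The highest ratio was that of CCTGCG, which is part of the rex core word on its other strand: 30 summits against 1 flank (exact McNemar adjusted p = 2.82e-06), 9 of them among the 20 strongest. AGCGCG followed with 19 summits against 1, GGCCGA with 17, GCCCGC with 15, CCGCTA with 13 and CCCGGG with 12, each against 1 flank, with adjusted exact p from 3.01e-04 to 0.0319. Of these summits, 11 of the 17 with GGCCGA and 11 of the 12 with CCCGGG lay beside a tRNA gene. The lowest ratios were those of AGATCC (2 against 16), AGTTAG (2 against 14) and TTTAAA (15 against 86).

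Of the 43 words of 8 bases called higher, the leading ones were GAGACGCA at 15 summits, GAGAAATA at 14, and AACCACTA, CGCAGGGA and GTGGTAGA at 13 each, with 0 flanks for all 5 (exact McNemar adjusted p from 0.00419 to 0.00918). CGCAGGGA overlaps the rex core word in 7 letters and was found at 7 of the 20 strongest members. AACCACTA and GTGGTAGA were at 0 of those 20, and all 13 summits with AACCACTA and 9 of 13 with GTGGTAGA lay beside a tRNA gene. The 3 words of 8 bases with the lowest ratios past the threshold were AGTTTGAA, AAGTTTGA and ATTTACAA, at 0 summits and at 13, 12 and 10 flanks. GAGACGCA and AAGAGACG (12 summits, 0 flanks) share the letters GAGACG and so count partly the same windows.

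GAGAGA was the most frequent of the words fixed by name. It occurred at 93 member summits (20.2%) and in 28 flanks (6.07%; exact McNemar adjusted p = 6.58e-08), and at 6.20% of the other X candidates. It was nonetheless less frequent than at autosomal optimal peaks outside windows (28.4%, -8.25 points, -12.5 to -3.64) and at X promoter peaks (28.9%, -8.72 points, -14.7 to -2.78). Against autosomal promoter peaks (21.2%) the difference of -1.04 points had an interval of -5.03 to 3.32, which included 0. CACGTG occurred at 40 summits (8.68%) and in 7 flanks (1.52%; exact McNemar adjusted p = 5.50e-05), and at 2.57% of the other X candidates, a difference of 6.11 points (3.80 to 9.06). Against the other sets of optimal peaks the intervals for CACGTG included 0. Members with CACGTG had a median signal of 111, those with GAGAGA 90.1. The pair with the strongest signals, windows shown above, were nearest to mdl-1 (715, with 273 and 437 in the replicates) and R03E9.2 (640, with 226 and 413). Of the 40 members with CACGTG, 0 had GCGCAGGG, beside 2.60% of all members. A tRNA gene lay beside 0 of the 40, against 19.7% of all members. These overlaps were not tested, and at 2.60% a count of 0 among 40 says little.

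The receptor half-site AGGTCA occurred at 20 summits (4.34%) and in 14 flanks (3.04%), which did not pass the threshold (exact McNemar adjusted p = 0.637). Its difference from the other X candidates was 1.28 points (-0.350 to 3.60), and 0 of the 20 strongest members had it. AAGTCA occurred at 22 summits and in 31 flanks (exact McNemar adjusted p = 0.522) and the GATA factor site TGATAA at 54 and 48 (0.848). TATAAA, the TATA box, occurred at 28 summits and in 52 flanks (exact McNemar adjusted p = 0.0564), and its difference from the other X candidates was -5.30 points (-7.42 to -2.55). The member share of 6.07% was near that of the other sets of optimal peaks (5.63 to 6.32%), and those intervals included 0. CCGCCC occurred at 21 and 6 (exact McNemar adjusted p = 0.0469). In all, 247 members had neither a tRNA gene within 250 bp nor GCGCAGGG, GAGAGA or CACGTG within 50 bp.

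**Figure D4:**
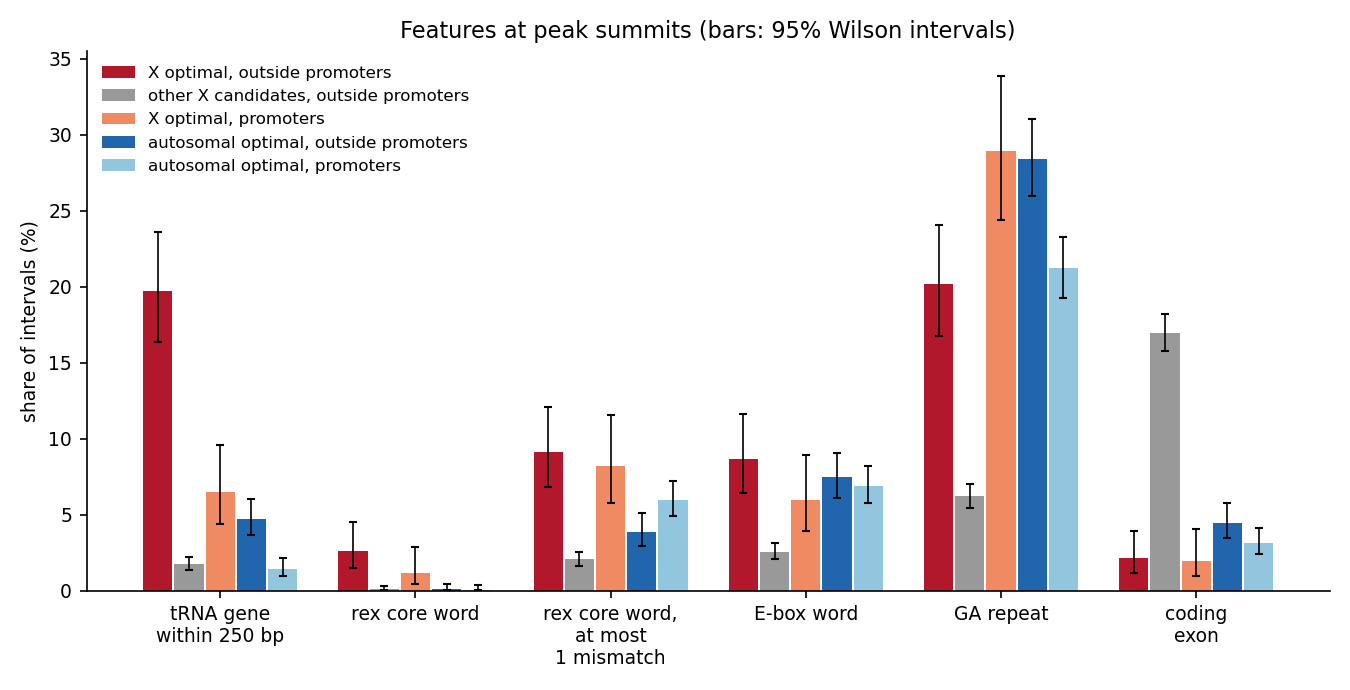
Percent of intervals with a feature at the summit in the X optimal peaks outside promoters and 4 other sets, with 95% Wilson intervals. The rex core word is GCGCAGGG, the E-box word CACGTG and the GA repeat GAGAGA, all within 50 bp of the summit. A tRNA gene lies beside 19.7% of the X optimal peaks outside promoters, against 1.44 to 6.52% of the other sets. The tRNA genes within reach differ between sets (on X, 225 of 276 lie outside the windows).

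Differences between groups of signal were not tested. With members ranked by signal and cut into 4 groups of 115 or 116, in the first group (signal 128 to 1105), GCGCAGGG with at most 1 mismatch was at 20 of 116 summits (17.2%, 11.4 to 25.1%), and in the next 3 groups at 10, 4 and 8 of 115 (3.57 to 13.1% in the last, which overlaps the first). CACGTG was at 15 of 116 and then at 12, 6 and 7 of 115, with first and last intervals that overlap (8 to 20.2% and 2.98 to 12%). Genes for tRNAs were beside 18 of 116 in the first group (15.5%, 10.05 to 23.2%) and 25 of 115 in the last (21.7%, 15.2 to 30.1%), with intervals that overlap. GAGAGA was at 27, 22, 24 and 20, in the 4 groups. Intergenic sequence held 70 of 116 summits in the first group (60.3%, 51.2 to 68.8%) and then 46, 55 and 46 of 115. The interval of the second and of the last group, 31.5 to 49.1% in both, did not overlap the first. That of the third group, 38.9 to 56.9%, did. AGGTCA was at 2, 7, 6 and 5 members from the first to the last group.

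**Figure D5:**
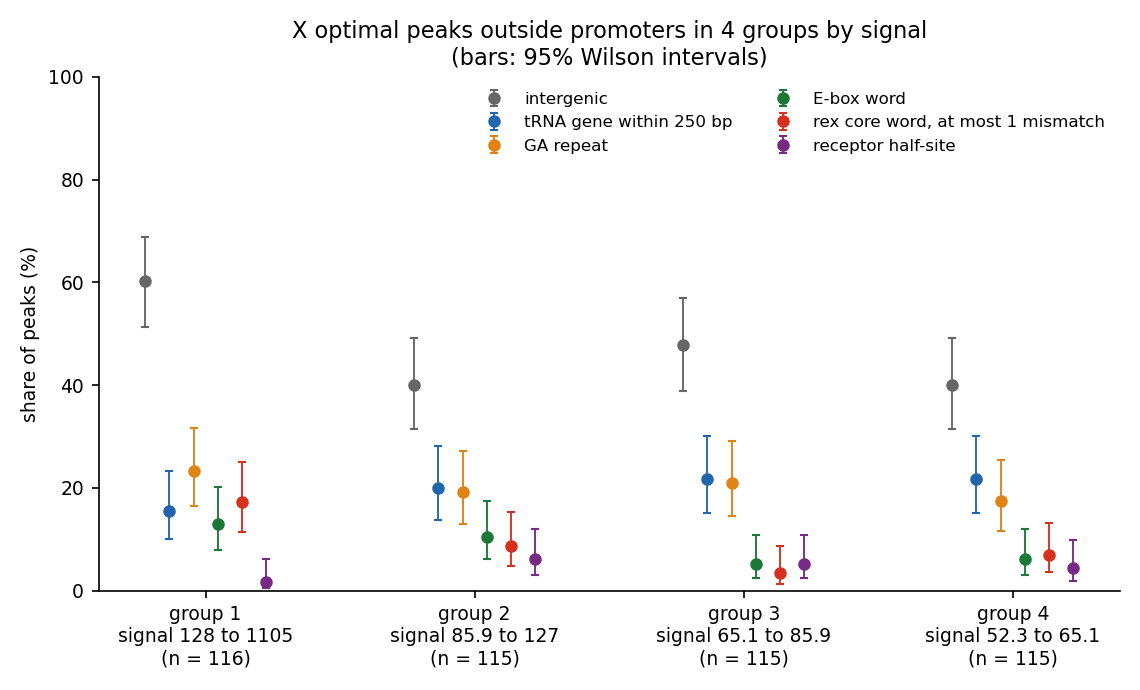
Percent of X optimal peaks outside promoters with a feature in each of 4 groups by signal, from the highest (group 1) to the lowest (group 4), with 95% Wilson intervals. The share with the rex core word GCGCAGGG at up to 1 mismatch is 17.2% in group 1 and 6.96% in group 4, and the receptor half-site AGGTCA stays between 1.72 and 6.09%.

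The nearest 5′ end named 331 of 2731 protein-coding genes on X (12.1%), 78 of them for 2 or more members. Nearness does not show that a peak acts on a gene. Genes of the nuclear receptor family, to which NHR-21 belongs, were the nearest gene in 15 of 27 cases (55.6%, 37.3 to 72.4%), beside 12.1% of all X genes. The median length of the 27 genes was 4321 bp, against 2548 bp for all X genes and 3266 bp for those nearest to a member, and the part of gene length in these counts was not tested. The strongest of these members were nearest to nhr-14 (543, with 172 and 370 in replicates 1 and 2), 1439 bp upstream of its 5′ end, with another in an intron of the same gene (479, with 171 and 311). A member in an intron of nhr-3 had 428 (144 and 283). Weaker ones were nearest to nhr-35 (220), daf-12, the receptor for dafachronic acids that governs dauer formation and larval timing (167), odr-7, which specifies an olfactory neuron (166), nhr-40 (160), nhr-48 (150), nhr-137 (128), nhr-1 (122), nhr-17 (121), nhr-25, a receptor of moulting and epidermal development (108), nhr-71 (102), nhr-120 (60.4), nhr-91 (54.9) and nhr-32 (54.8). At odr-7 the summit lay beside a tRNA-Ala gene.

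The other lists lay closer to the share of all X genes or were short. The lists were made from gene names and do not hold every gene of a class. Of 29 listed cuticle collagen genes, 6 were nearest to a member (20.7%, 9.85 to 38.4%): col-185 (329, with GCGCAGGG), dpy-7 (93.1), col-181 (91.5), col-173 (83.8), col-175 (69.5) and dpy-8 (54.3). The summits counted for col-175 and dpy-8 lay in introns of other genes, lgc-4 and C31H2.3. The collagen gene dpy-3, nearest to 2 members (up to 108), is not on the list and was noticed afterwards. Of sex determination and dosage compensation genes on X it was 1 of 6, xol-1. The listed homeobox genes gave 0 of 22 (Wilson interval 0 to 14.9%), although alr-1, a homeobox gene outside the list, was nearest to 1 member (57.9). The listed neuropeptide genes gave 3 of 34 (flp-8, flp-19 and nlp-76, for which the summit lay in an intron of nhr-17). The listed neurotransmitter receptor and channel genes gave 2 of 42 (lgc-21, at a summit beside a tRNA-Lys gene, and twk-21). Outside that list, the channel genes kcnl-3 (114), unc-58 (100.2) and egl-36 (61.9) and the tyramine receptor gene ser-2 (77.2) were each nearest to 1 member. The single X gene on the list of Wnt ligands and secretion, mom-1, had a summit inside it but was not the nearest 5′ end.

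Of the 331 nearest genes 253 had 1 member, and those with the most members are named here after their counts were seen. The gene mdl-1, a Mad-like basic helix-loop-helix factor, was nearest to 9 members, with signals of 59.0 to 715 over 11120 bp. Some of these summits lay in the neighbouring gene abts-4, which held 4. Of the 9, 2 had CACGTG. The gene mxl-3, a Max-like factor that regulates lysosomal lipid use, was nearest to 6 members over 8017 bp, from 75.7 to 307. Of these, 1 had CACGTG. All 6 were in both replicate lists, against 7 of the 9 at mdl-1. The gene scd-1, in which mutations suppress constitutive dauer formation, was nearest to 6 members (54.2 to 313). Nearest to svh-5 were 5 members (61.9 to 109), 4 of them in both replicate lists. The heterochronic gene lin-14, whose protein sets early larval fates, held 5 members in introns (55 to 122), and daf-12 held 4, but 2 of 5 at lin-14 and 2 of 5 nearest to daf-12 were in both replicate lists. Of these genes, lin-14 (20312 bp), scd-1 (21903 bp) and daf-12 (30968 bp) are long.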

How the data were processed

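Peak lists from ChIP-seq of eGFP-tagged NHR-21 in L2 larvae were used: 1 list per replicate, 1 pooled over both (30000 candidates each) and the optimal list. The deposited signal value of each peak and its −log10 q-value are the authors' own. Positions and summits were deposited in bp in ce11. Per the text listing deposited with the lists, ChIP and control alignments were used. No source used here names the aligner, the caller or the reproducibility threshold. Depth is unknown.

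Gene models came from Ensembl release 115, tRNA products and sequence from RefSeq (WBcel235). Members were compared with other pooled X candidates outside the same windows that overlapped no optimal peak (99 others overlapped one and were left out). Shares carry 95% Wilson and differences 95% Newcombe intervals. Words, counted on both strands in windows reaching 50 bp to either side of a position, were compared with flanks by two-sided exact McNemar tests with Benjamini-Hochberg adjustment, for all words of 6 bases and those of 8 bases found in at least 10 windows. The word test was tested on simulated data. Python 3.11.15, numpy 2.4.6, scipy 1.17.1 and pandas 2.3.3 were used.

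Members, gene lists and words were chosen with earlier results of these data known. Named regions were the 20 strongest and 5 weakest members and the 5 strongest other candidates. Named genes were the nearest or surrounding genes of those regions and listed genes nearest to a member. Named words were 8 fixed ones and, per length, the 6 highest and 3 lowest ratios past the threshold. Exceptions are stated where they occur.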

Additional observations from a re-analysis of the deposited data

How the results depend on the processing

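The number of members was 542 with windows from 500 bp upstream, 358 from 2000 bp, 513 with the most upstream 5′ end of each gene only, and 456 to 460 with the strongest intervals of a single replicate. The stronger 50% of the optimal list held 227. The share in both replicate lists was 64.2% with a reciprocal overlap of at least 50%, 69.2% with summits within 100 bp and 22.6% for the strongest 1000 intervals of each replicate.

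Differences from the other X candidates kept their direction, with intervals that exclude 0, under the alternatives run for them. Leaving out a replicate gave 11.2 to 12.3 points for intergenic sequence, 16 to 17 for tRNA genes and 2.33 to 2.75 for GCGCAGGG. The GCGCAGGG difference was 4.74 points in the stronger 50% of peaks and 3.77 within 100 bp of the summit. For GCGCAGGG within 50 bp, weighting the candidates to the members' GC content gave 2.34 points, beside 2.49 unweighted, computed without an interval. Allowing 1 mismatch and leaving out multicopy windows were added after seeing the data.

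Words of 6 bases called higher and lower numbered 327 and 200 with windows reaching 100 bp to either side, 62 and 65 in the stronger 50% of peaks, and 131 to 160 and 100 to 129 with a single replicate. For 8 bases these were 115 and 168, 12 and 51, and 32 to 37 and 65 to 89. The stronger 50% holds fewer windows; otherwise the cause was not tested. The nearest gene body in place of the 5′ end named 330 genes. No paired analysis was possible because the samples form 1 group. Depth was not given, so a region missing from a list may have been undetectable.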
